A study of Mus musculus with 61 samples.

Results

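The enzymes that cut and finish prohormones are described here as 9 genes, taken by name from the 46078 genes of the count table: Pcsk1, Pcsk2, Pcsk1n, Scg5, Cpe, Pam, Furin, Pcsk5 and Pcsk6. They were listed by name and not by a threshold on measured values, but with earlier results of these data known. All 9 were among the 24004 genes that passed the filter on low counts. They cover the convertases of the regulated pathway (Pcsk1, Pcsk2), the proteins that bind those convertases (Pcsk1n, Scg5), the enzymes that finish the cut peptide (Cpe, Pam) and the convertases of the constitutive pathway (Furin, Pcsk5, Pcsk6).

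Peptide hormones are made as longer precursors that are cut at pairs of basic residues inside secretory granules. Pcsk1 (also called PC1/3) and Pcsk2 (PC2) make these cuts in endocrine and neuroendocrine cells, the carboxypeptidase Cpe then trims the basic residues left at the end, and Pam amidates those peptides that carry a terminal glycine. Furin, Pcsk5 and Pcsk6 (PACE4) cut growth factors, receptors and adhesion proteins in many cell types, at the Golgi or the cell surface.

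Pancreatic ductal organoids, grown from hand-picked ducts of adult C57BL/6 mice, were infected with lentiviral vectors that express Ngn3, Pdx1 and MafA under doxycycline, each with its own fluorescent protein (GFP with Ngn3, LSS-Orange with Pdx1, tdTomato with MafA), together with a vector for the doxycycline-dependent transactivator. After 8 days of induction the organoids were dissociated, pools of 50 cells were sorted by colour and RNA was sequenced from each pool. Cultures received either wild-type Ngn3 (WT) or 6SA, a phospho-mutant in which target serines of cyclin-dependent kinases are replaced by alanine. The 12 conditions were thus Pdx1, MafA, Pdx1-MafA, Ngn3-Pdx1, Ngn3-MafA and Ngn3-Pdx1-MafA cells, each from WT and from 6SA cultures. Cells without Ngn3 served as controls, and they too came from infected, doxycycline-treated cultures and carried Pdx1, MafA or both; uninfected cells and cells with Ngn3 alone were not analysed here. Each condition held 2 or 3 biological replicates, with replicates 1 and 2 taken at passage 2 and replicate 3 at passage 5, and no label says whether replicates came from separate animals, so p-values measure the spread between these samples. Cells of several conditions were sorted from the same WT or 6SA cultures, and the main test treated all samples as independent.

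Of 61 libraries, 58 held over 1000000 gene counts and were kept, and their technical repeats (1 to 3 pools) were summed into 32 samples, 17 with Ngn3 and 15 without, of 2579583 to 19461008 counts. Levels are given in CPM (counts of a gene per 1000000 gene counts, after TMM scaling), and 3 counts, the limit below which a gene is called not detected, stood for 0.136 to 1.01 CPM. Neurog3, the gene for Ngn3, lay between 7.87 and 329 CPM in samples with Ngn3 and between 0 and 0.787 CPM in those without. Pdx1 did not separate Pdx1 cells (11.2 to 37.7 CPM) from MafA cells (4.22 to 19.3 CPM) in this way. With Ngn3 it ran from 9.84 to 48.3 CPM in Ngn3-Pdx1, 3.21 to 30.6 CPM in Ngn3-MafA and 30.8 to 191 CPM in 3-factor cells. Mafa was at 0 to 0.0901 CPM in Pdx1 cells, 0.107 to 3.16 CPM in MafA cells (lowest sample 1 count) and 0 to 4.21 CPM in Pdx1-MafA cells. With Ngn3 it was at 0 to 0.116 CPM in Ngn3-Pdx1, 0.306 to 7.79 CPM in Ngn3-MafA and 3.46 to 12.7 CPM in 3-factor cells. The summed level of 8 duct markers (among them Krt19, Krt7, Spp1 and Muc1) ran from 11355 to 57350 CPM without Ngn3 and from 1434 to 16827 CPM with Ngn3, while that of 8 endocrine markers (among them Chga, Chgb and Neurod1) ran from 1.29 to 8.24 and from 481 to 13352 CPM. Spp1 alone had medians of 15362 CPM without and 2557 CPM with Ngn3, against 19383 and 4317 CPM for the duct sum. In the pooled edgeR test described below, 5 duct markers were lower (10.5% of all genes were), and Krt7, Epcam and Sox9 were not called. Of 6 acinar markers, Prss1, Ptf1a and Pnlip were at 0 counts in every sample and Cpa1 at 3 or fewer. Cela1 ran up to 12.7 CPM without and 9.71 CPM with Ngn3, and Bhlha15 up to 7.26 and 19.6 CPM. Summed stromal markers reached 14.8 and 281 CPM in the same order, endothelial markers 1.32 and 28.0 CPM and immune markers 27.1 and 43.6 CPM. Samples of passage 5 with Ngn3 stood lowest for the endocrine markers (481 to 1407 CPM against 1759 to 13352 CPM at passage 2).

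The stretches just upstream of 4 members that moved together with Ngn3 are shown because these genes share the pattern described below. RefSeq sequences of GRCm38.p6 were used and were cut at the first base of the gene in the annotation. Capitals mark CANNTG, the E-box read by basic helix-loop-helix factors such as Ngn3, and TGACG or its complement CGTCA, which is part of the cyclic AMP response element TGACGTCA.

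Pcsk1, chr13:75089607-75089825, plus strand: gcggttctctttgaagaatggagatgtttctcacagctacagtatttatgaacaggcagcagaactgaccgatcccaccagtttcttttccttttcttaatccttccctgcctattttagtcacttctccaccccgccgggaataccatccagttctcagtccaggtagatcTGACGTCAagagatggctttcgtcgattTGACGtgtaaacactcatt

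Pcsk2, chr2:143545883-143546132, plus strand: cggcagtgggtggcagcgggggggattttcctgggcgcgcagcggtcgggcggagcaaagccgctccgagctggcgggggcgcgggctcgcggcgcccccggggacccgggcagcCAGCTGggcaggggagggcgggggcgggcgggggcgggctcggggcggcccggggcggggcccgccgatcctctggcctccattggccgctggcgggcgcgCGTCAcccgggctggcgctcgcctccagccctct

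Pcsk1n, chrX:7919572-7919821, plus strand: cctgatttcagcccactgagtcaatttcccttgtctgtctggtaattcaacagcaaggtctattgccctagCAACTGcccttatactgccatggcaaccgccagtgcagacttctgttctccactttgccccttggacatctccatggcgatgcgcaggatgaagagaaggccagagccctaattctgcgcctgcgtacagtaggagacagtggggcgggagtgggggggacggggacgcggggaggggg

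Scg5, chr2:113829122-113829341, minus strand: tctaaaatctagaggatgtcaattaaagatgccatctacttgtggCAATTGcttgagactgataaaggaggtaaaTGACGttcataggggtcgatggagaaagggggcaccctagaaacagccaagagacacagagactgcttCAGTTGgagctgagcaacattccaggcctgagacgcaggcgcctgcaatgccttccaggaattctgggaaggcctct

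The Pcsk1 stretch held no CANNTG and 3 matches to TGACG or CGTCA, a pair of which overlap in 1 full TGACGTCA. Among 32851 mouse promoters of 250 bases, searched on both strands, TGACGTCA was found in 1.55%, and Pcsk1 was the only member that held it of the 8 members with a promoter in the table (all but Cpe). CANNTG was present in 66.2% of all promoters and occurred 1 time in the Pcsk2 stretch, 1 time in that of Pcsk1n and 2 times in that of Scg5. The variant CAGATG (or CATCTG), present in 14.4% of promoters, was in none of the 8 members' windows, nor were TGCTGA (or TCAGCA, 16.1%) and TAATTA (4.84%). The Pcsk2 stretch was 82.4% G and C, against a median of 52.4% over all promoters and 45.7% in Pcsk1, and it overlaps an exon of the antisense gene Pcsk2os1. These matches describe letters in a window and say nothing about binding.

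Pcsk1, Pcsk2, Pcsk1n, Scg5 and Cpe were higher in every one of the 17 samples with Ngn3 than in any of the 15 without, as the plot of all members by condition shows. For that pattern the share over all 24004 genes tested was 0.542%. In the pooled comparison of cells with and without Ngn3 (the mean of the 6 differences between matched conditions, edgeR's quasi-likelihood test), 6 members were higher and 1 was lower at an adjusted p under 0.05, against 11.1% of all genes higher, 10.5% lower and 21.5% in either direction. Furin and Pcsk5 did not pass. Among all genes called, 51.4% were higher, and with plain library totals in place of TMM 68.4% were higher, as the median log2 difference of all genes moved from 0.07 to 0.28; the calls of all 9 members stayed as they were. In pooled RNA from 50 sorted cells, fewer cells of a type and less RNA per cell cannot be told apart.

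**Figure D1:**
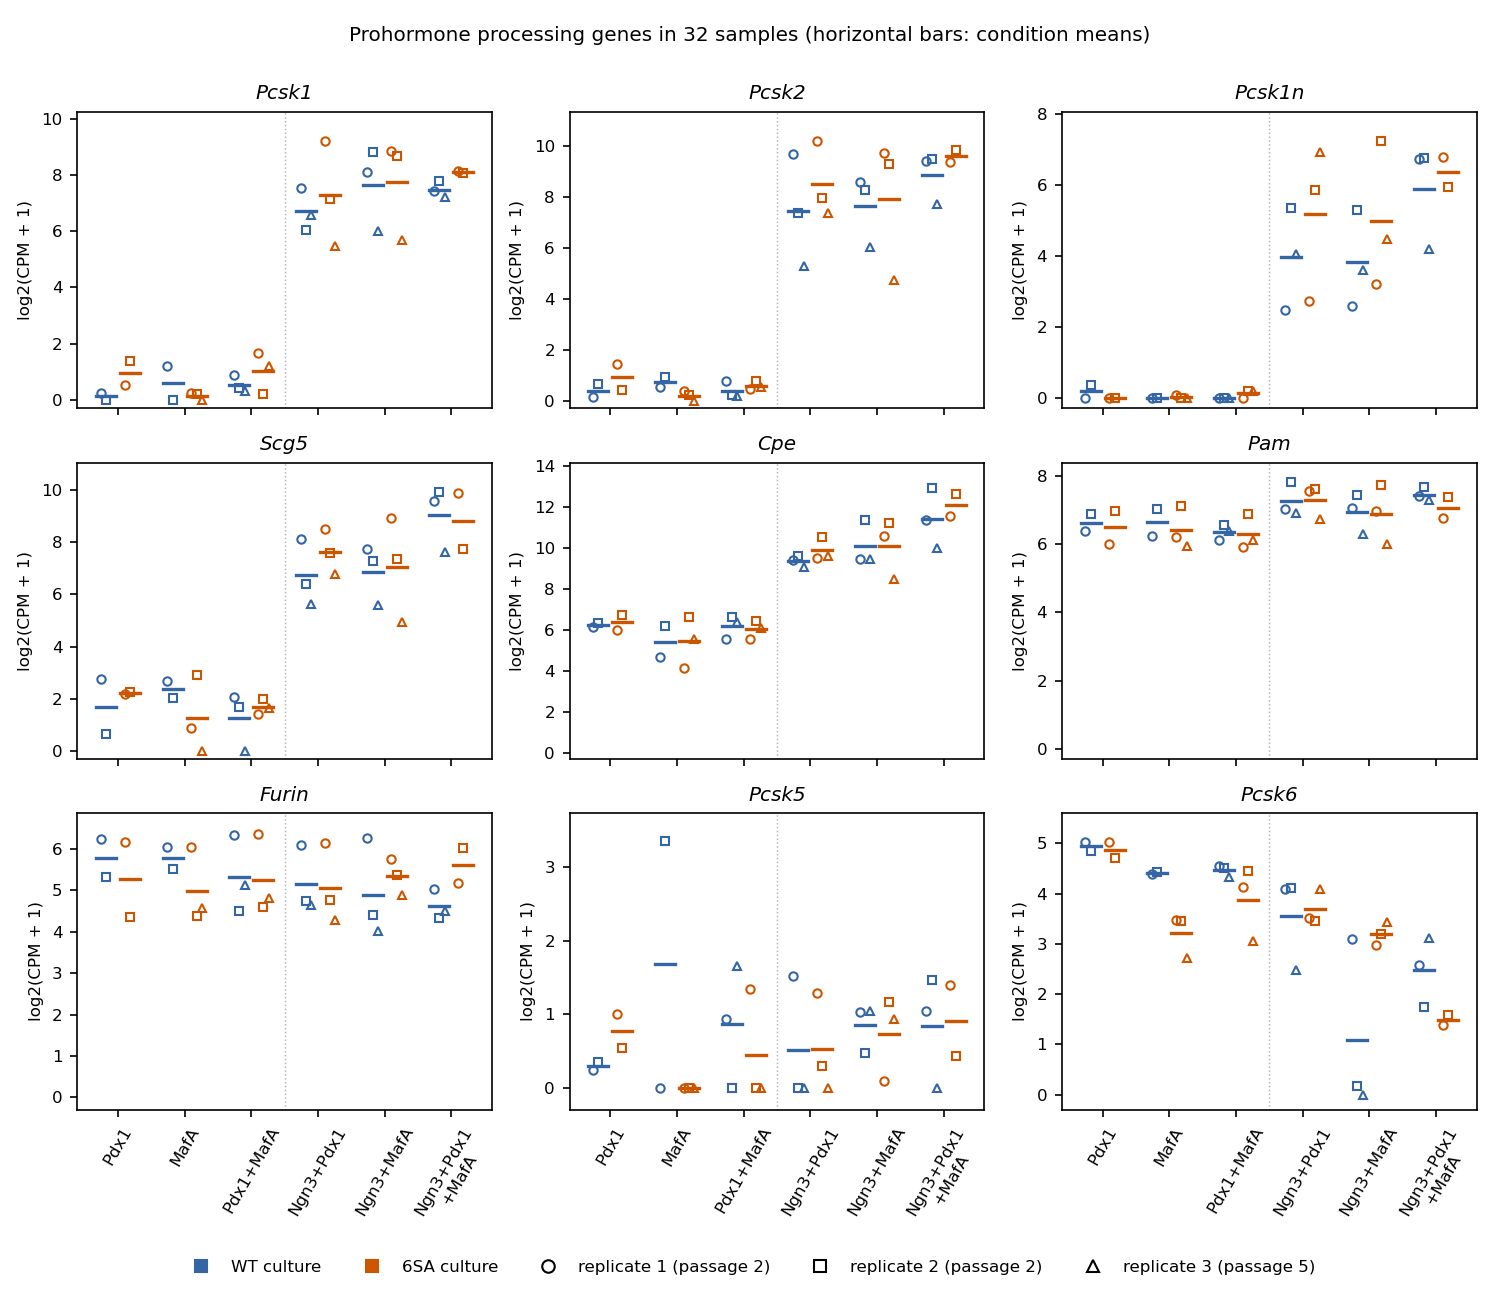
Level of each of the 9 genes in all 32 samples, as log2(CPM + 1), by factor combination, with blue for WT and orange for 6SA cultures; circles, squares and triangles are replicates 1, 2 and 3, horizontal bars are condition means, and a dotted line divides cells without Ngn3 (left) from cells with Ngn3 (right). The 5 genes from Pcsk1 to Cpe sit higher in all 17 samples right of the line, Pam and Furin overlap across it, and Pcsk6 lies mostly lower on the right.

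Pcsk1 (ENSMUSG00000021587, chr13:75089826-75134861, plus strand) encodes the convertase that makes early cuts in proinsulin. Without Ngn3 it was near the detection limit, with a lowest value of 0, a median of 0.241 and a highest of 2.18 CPM over 15 samples. In Ngn3-Pdx1 cells it stood at 183, 64.4 and 95 CPM in WT replicates 1 to 3 and at 590, 141 and 43.0 CPM in 6SA replicates 1 to 3. In Ngn3-MafA cells the values were 276, 444 and 63.2 CPM (WT) and 457, 407 and 50.7 CPM (6SA).
Cells with all 3 factors varied least, at 171, 218 and 149 CPM (WT) and 279 and 269 CPM (6SA replicates 1 and 2). The mean with Ngn3 was 388 times the mean without, and the pooled log2 fold change was 8.85 (SE 0.56, edgeR adjusted p = 7.07e-12).

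Pcsk2 (ENSMUSG00000027419, chr2:143546156-143816285, plus strand) encodes the convertase that frees glucagon and somatostatin from their precursors. It was between 0 and 1.74 CPM without Ngn3. In Ngn3-Pdx1 cells it reached 813, 162 and 38.2 CPM (WT) and 1162, 243 and 162 CPM (6SA), and in Ngn3-MafA cells 382, 309 and 63.8 CPM (WT) and 835, 615 and 25.5 CPM (6SA). With all 3 factors it was at 681, 713 and 207 CPM (WT) and at 665 and 907 CPM (6SA). The groups with and without Ngn3 did not overlap, with a ratio of means of 1004 and a pooled log2 fold change of 10.04 (SE 0.68, edgeR adjusted p = 2.06e-11). Antisense genes Pcsk2os1 and Pcsk2os2 share exonic positions with Pcsk2, and since the counting strand is not given in the sources used here, reads from the shared positions cannot be told apart.

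Pcsk1n encodes proSAAS, a granin-like protein that can inhibit Pcsk1. The gene (ENSMUSG00000039278, chrX:7919822-7924410, plus strand) overlaps an exon of the antisense gene Eras. It had 4 counts in total over the 15 samples without Ngn3, and 11 of these samples were at 0. In Ngn3-Pdx1 cells it stood at 4.57, 39.5 and 15.7 CPM (WT) and 5.62, 57.4 and 121 CPM (6SA), and in Ngn3-MafA cells at 5.0, 38.2 and 11.2 CPM (WT) and 8.31, 151 and 21.2 CPM (6SA). With all 3 factors the values were 105, 107 and 17.1 CPM (WT) and 110 and 61.0 CPM (6SA). The edgeR adjusted p of the pooled difference was 3.21e-09. A fitted fold rests on the 4 control counts, so bounds against 3 counts per sample are used where a control condition was at 0: Pcsk1n was at least 206-fold higher in WT cells with all 3 factors than in WT Pdx1-MafA cells, at least 29.1-fold higher in WT Ngn3-MafA than in WT MafA cells, and at least 242-fold higher in 6SA Ngn3-Pdx1 than in 6SA Pdx1 cells.

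Scg5 (ENSMUSG00000023236, chr2:113776362-113829121, minus strand) encodes 7B2, the chaperone that the Pcsk2 precursor needs to become active. Its level without Ngn3 ran from 0 to 6.48 CPM, with a median of 3.03 CPM. In Ngn3-Pdx1 cells it was at 279, 84.3 and 48.5 CPM (WT) and 361, 190 and 109 CPM (6SA), and in Ngn3-MafA cells at 214, 154 and 47.0 CPM (WT) and 481, 162 and 29.3 CPM (6SA). Cells with all 3 factors had 755, 970 and 195 CPM (WT) and 944 and 210 CPM (6SA). No sample with Ngn3 fell to the level of a sample without it, and the pooled log2 fold change was 6.52 (SE 0.59, edgeR adjusted p = 3.70e-09).

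Cpe (ENSMUSG00000037852, chr8:64592542-64693054, minus strand), the carboxypeptidase that trims the cut peptide, differed from the 4 genes above in being expressed in cells without Ngn3 as well. There it lay between 16.8 and 105 CPM, with a median of 70.2 CPM. In Ngn3-Pdx1 cells it stood at 689, 789 and 533 CPM (WT) and 717, 1490 and 780 CPM (6SA), and in Ngn3-MafA cells at 700, 2594 and 709 CPM (WT) and 1516, 2422 and 359 CPM (6SA). The highest values were in cells with all 3 factors, at 2616, 7805 and 1015 CPM (WT) and 3023 and 6360 CPM (6SA). The groups did not overlap, the ratio of means was 30.1 and the pooled log2 fold change was 4.68 (SE 0.37, edgeR adjusted p = 3.17e-10).

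Pam (ENSMUSG00000026335, chr1:97795114-98095646, minus strand), the amidating enzyme, rose far less. It was between 59.8 and 138 CPM without Ngn3 (median 83.1) and between 62.8 and 227 CPM with Ngn3 (median 156), so the groups overlapped. In Ngn3-Pdx1 cells it was at 129, 227 and 120 CPM (WT) and 190, 194 and 105 CPM (6SA), and in Ngn3-MafA cells at 133, 172 and 78.2 CPM (WT) and 124, 213 and 62.8 CPM (6SA). Cells with all 3 factors had 169, 203 and 156 CPM (WT) and 108 and 167 CPM (6SA), against 69.1, 93.9 and 83.3 CPM and 59.8, 118 and 68.6 CPM in Pdx1-MafA cells, which is separate in the WT pair alone. The pooled log2 fold change was 0.69 (SE 0.19, edgeR adjusted p = 0.00925). In no single condition did Pam pass the test of all samples together, and it passed for all 3 factors in WT cells by DESeq2 and when the replicate number was entered as a block, which raised the count of members called there from 5 to 6.

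Pcsk6 (ENSMUSG00000030513, chr7:65861734-66050386, plus strand) was the member that fell. Its lowest, median and highest values were 5.54, 20.7 and 31.6 CPM without Ngn3 and 0, 7.58 and 16.2 CPM with Ngn3. The pooled log2 fold change was -1.76 (SE 0.38, edgeR adjusted p = 0.000942), and the ratio of means was 0.378. The means by combination were 29.1 ± 3.08 CPM in Pdx1 cells (SD, n = 4), 13.2 ± 6.72 CPM in MafA cells (n = 5) and 18.0 ± 5.64 CPM in Pdx1-MafA cells (n = 6), and they were lower at 12.2 ± 4.72 CPM in Ngn3-Pdx1 (n = 6), 5.42 ± 4.26 CPM in Ngn3-MafA (n = 6) and 3.72 ± 2.58 CPM in cells with all 3 factors (n = 5). In WT Ngn3-MafA cells it stood at 7.58, 0.130 and 0 CPM, against 19.9 and 20.7 CPM in WT MafA cells. Cells with all 3 factors had 4.94, 2.34 and 7.71 CPM (WT) and 1.63 and 2.00 CPM (6SA), against 22.4, 21.6 and 19.1 CPM and 16.5, 20.8 and 7.29 CPM in Pdx1-MafA cells. All samples with Ngn3 lay below all without in 5 of the 6 pairs of matched conditions, a pattern shown in the 3 WT pairs (Pdx1, MafA and both) by 8.77%, 10.7% and 11.3% of all genes and in the 3 6SA pairs by 9.54%, 5.21% and 14.6%. The exception was Ngn3-MafA in 6SA cultures, where 6SA MafA cells were already at 10.1, 9.88 and 5.54 CPM and Ngn3-MafA cells at 6.84, 8.20 and 9.78 CPM. No single pair passed edgeR's adjusted p for Pcsk6, and 3 of the 6 had an unadjusted p under 0.05. These calls depended on the processing. In 6SA cells with all 3 factors (log2 fold change -3.03, edgeR adjusted p = 0.0953) Pcsk6 was called in 6 of 16 alternatives, among them the replicate block, passage 2 alone and DESeq2. In WT Ngn3-MafA cells (-2.93, edgeR adjusted p = 0.215) it was called in 4 of 16, among them DESeq2 and the fit without WT Ngn3-MafA replicate 1, and in WT cells with all 3 factors in 1 of 17 (newer edgeR settings).

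Furin (ENSMUSG00000030530, chr7:80388585-80405436, minus strand) ran from 19.6 to 81.2 CPM without Ngn3 and from 15.1 to 76 CPM with Ngn3, and the groups overlapped in all 6 conditions. Its pooled log2 fold change was -0.32 (SE 0.29, edgeR adjusted p = 0.587). Pcsk5 (ENSMUSG00000024713, chr19:17432319-17837632, minus strand) had 0 to 32 counts per sample (at most 9.25 CPM), with a pooled log2 fold change of 0.90 (SE 0.72, edgeR adjusted p = 0.490). In 6SA Ngn3-MafA cells Pcsk5 stood at 0.0611, 1.25 and 0.917 CPM against 0 in all 3 samples of 6SA MafA cells (edgeR adjusted p = 0.372), and the groups overlapped in the other 5 pairs.

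When levels with Ngn3 were divided by exonic length, the order by the median over 17 samples was Cpe (389 CPM per kb), Scg5 (124), Pcsk2 (48.3), Pcsk1 (32.6), Pcsk1n (17.4), Pam (13.1), Furin (3.15), Pcsk6 (1.46) and Pcsk5 (0.0635 CPM per kb). Cpe was above Scg5 and Scg5 above Pcsk2 in 17 of 17 samples. Pcsk2 exceeded Pcsk1 in 11 of the 17, Pcsk1 exceeded Pcsk1n in 10 and Pcsk1n exceeded Pam in 9, so the places of these 4 genes differed from sample to sample. The ranges of each pair of neighbours overlapped across samples.

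With each matched pair of conditions compared within the fit over all 32 samples, Pcsk1 and Pcsk2 passed edgeR's adjusted p in 6 of 6, Cpe and Pcsk1n in 4 and Scg5 in 3. All 5 genes had an unadjusted p under 0.05 and samples that did not overlap in 6 of 6 pairs. That upward separation was shown by 6.43%, 8.36% and 11.1% of all genes in the WT pairs with Pdx1, MafA and both, and by 8.73%, 6.4% and 18.7% in the 6SA pairs. In Ngn3-Pdx1 against Pdx1 cells, 2 members were called in WT cultures (background 0.108% of all genes, all higher) and 3 in 6SA cultures (0.367%). Pcsk1 had log2 fold changes of 9.64 (adjusted p = 0.00423) and 8.06 (0.00201), and Pcsk2 of 10.45 (0.00582) and 8.87 (0.00454) in these edgeR tests. In Ngn3-MafA against MafA cells, 3 members were called in WT cultures (background of genes higher 0.308%) and 5 in 6SA cultures (1.17%). Pcsk1 and Pcsk2 rose by 8.30 and 8.68 on the log2 scale in the WT and by 10.96 and 11.16 in the 6SA pair (edgeR adjusted p = 0.00327, 0.00996, 2.59e-05 and 0.000105). Cpe had nearly the same fold in both, at 4.81 and 4.73 (edgeR adjusted p = 0.0141 and 0.00114), and Scg5 was called in the 6SA pair, at 6.50 (0.00423), but not in the WT pair, at 4.98 (0.103). The difference between cultures was not tested for this pair alone, and the test over all 3 combinations, given below, did not pass.
With all 3 factors against Pdx1-MafA, 5 members were called in WT cultures (background 2.48%) and the same 5 in 6SA cultures (3.29%). Scg5 rose by 8.42 and 8.00 on the log2 scale there (edgeR adjusted p = 0.000338 and 0.000546), and Cpe by 5.67 and 6.15 (0.000139 and 1e-04). Each comparison of WT Pdx1, 6SA Pdx1 or WT MafA rests on 2 control samples, and without either of these no member was called; DESeq2 called 5, 5 and 6 members there. The plot of fold changes by condition sets these values side by side.

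**Figure D2:**
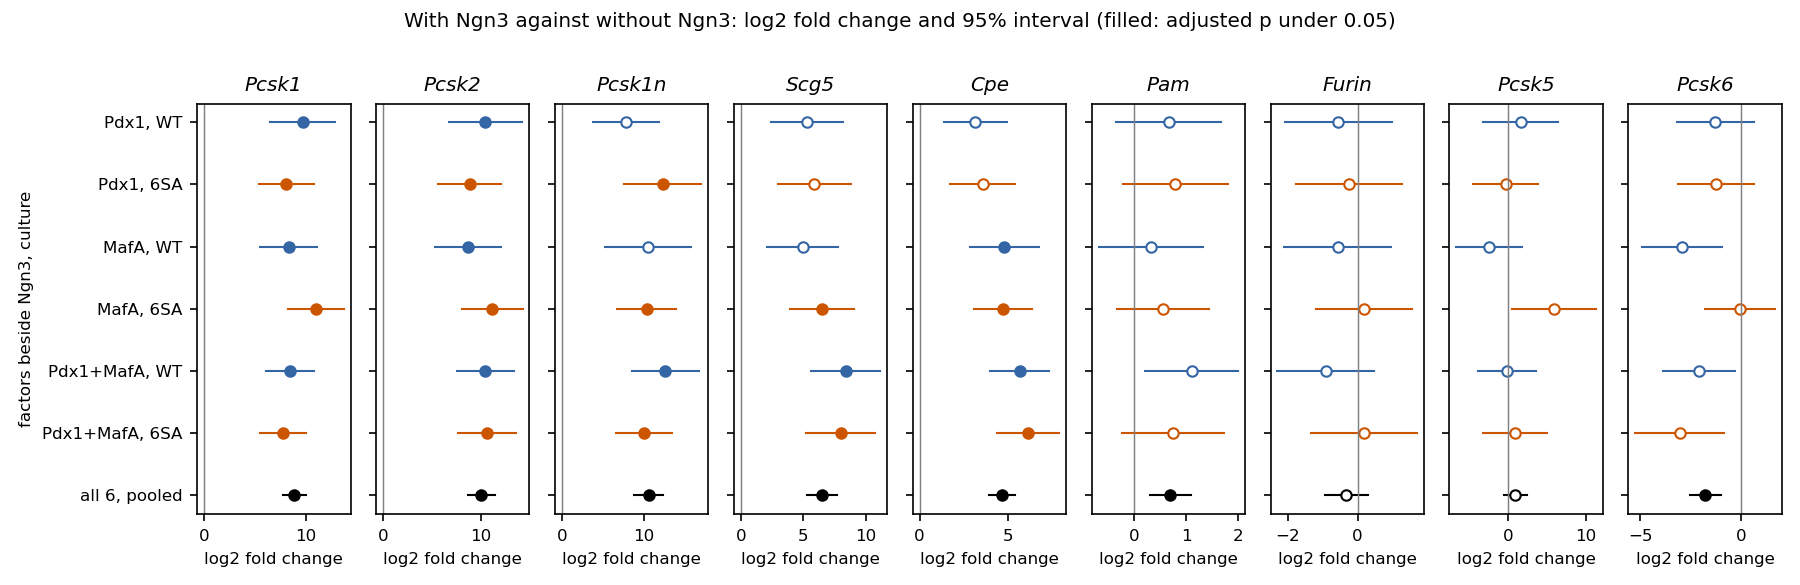
Log2 fold change of each member between cells with and without Ngn3, for 6 matched pairs of conditions (blue WT, orange 6SA) and pooled (black), with the 95% interval; filled points passed an adjusted p under 0.05, and each panel has its own scale. Pcsk1 and Pcsk2 are filled in all rows, Furin and Pcsk5 in none, and for Pcsk1n the fold depends on a control level at or near 0 counts.

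Members were then compared between the 3 combinations that hold Ngn3, with WT and 6SA cultures averaged. Cpe had a mean of 833 ± 335 CPM in Ngn3-Pdx1 cells (SD, n = 6), 1383 ± 952 CPM in Ngn3-MafA cells (n = 6) and 4164 ± 2815 CPM with all 3 factors (n = 5). Against Ngn3-Pdx1 cells the difference was 2.37 on the log2 scale (SE 0.52, edgeR adjusted p = 0.0132), and Cpe was the single member called, where 0.525% of all genes were called higher. That call was lost without 6SA Ngn3-Pdx1 replicate 3, without replicate 2 of the WT cells or without replicate 2 of the 6SA cells with all 3 factors, and the adjusted p ranged from 1.02e-10 to 0.0745 over the alternatives. Against Ngn3-MafA cells no member was called by edgeR (2.72% of all genes were), 2 members had an unadjusted p under 0.05 and DESeq2 called 1, Cpe, which edgeR placed at 1.61 (adjusted p = 0.0797).
Scg5 averaged 179 ± 122, 181 ± 163 and 615 ± 385 CPM in the 3 combinations, and its differences of 1.80 and 1.79 on the log2 scale did not pass (edgeR adjusted p = 0.218 and 0.174). Scg5 was called in 1 of 22 alternatives against Ngn3-Pdx1 (no gene filter) and in 2 of 22 against Ngn3-MafA (no gene filter and the replicate block). Against Ngn3-MafA, Cpe was called in 6 of 22, the replicate block among them. Between Ngn3-Pdx1 and Ngn3-MafA cells edgeR called no member (0.133% of all genes), 1 member, Pcsk6, had an unadjusted p under 0.05 and DESeq2 called none. The duct marker sum, in which Spp1 has the highest median, also differed between the same combinations. Its medians were 8276 CPM in Ngn3-Pdx1, 4819 CPM in Ngn3-MafA and 1871 CPM in cells with all 3 factors. Endocrine markers had medians of 2561, 3367 and 5683 CPM, and the part of both sums in the Cpe difference was not tested.

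The balance of the convertases was followed as the log2 ratio of Pcsk1 to Pcsk2 counts (with 1 added to each), which is free of the scaling between samples. It was -2.15, -1.32 and 1.31 in WT and -0.98, -0.79 and -1.91 in 6SA Ngn3-Pdx1 cells. In Ngn3-MafA cells it was -0.47, 0.53 and -0.01 (WT) and -0.87, -0.59 and 0.99 (6SA). With all 3 factors it was -1.99, -1.71 and -0.47 (WT) and -1.25 and -1.75 (6SA).
Pcsk2 counts exceeded Pcsk1 counts in all 5 samples with 3 factors, and the other combinations held ratios on both sides of 0. The place of 0 depends on gene length, and per kb of exon the ratio of Pcsk1 to Pcsk2 was below 1 in 4 of these 5 samples and 1.02 in WT replicate 3. The mean was -1.43 ± 0.60 (SD, n = 5) with 3 factors, -0.97 ± 1.24 (n = 6) in Ngn3-Pdx1 cells and -0.07 ± 0.71 (n = 6) in Ngn3-MafA cells. Of 4 comparisons made by two-sided exact permutation tests, none passed after adjustment. The difference of 3 factors from Ngn3-MafA was -1.37 (exact permutation p = 0.015, adjusted p = 0.06, lower in 5 of 5 pairs with the same number), where 0.005 is the smallest p possible. Its adjusted p was 0.02 when libraries of low depth were kept and 0.04 without WT replicate 3 of the cells with 3 factors, with differences of -1.44 and -1.60. Ngn3-Pdx1 differed from Ngn3-MafA by -0.90 (exact permutation p = 0.175, adjusted p = 0.35), and without WT Ngn3-Pdx1 replicate 3, the sample at 1.31, by -1.41 (adjusted p = 0.03).

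Scg5, the chaperone of Pcsk2, was followed against Pcsk2 in the same way, as a description. The log2 ratio of Scg5 to Pcsk2 counts averaged -0.79 ± 0.76 (SD, n = 6) in Ngn3-Pdx1 cells, -0.80 ± 0.70 (n = 6) in Ngn3-MafA cells and -0.22 ± 1.08 (n = 5) with all 3 factors. In the last group it was 0.15, 0.44 and -0.09 in WT and 0.51 and -2.11 in 6SA cells, so that 1 sample, 6SA replicate 2, lay below all the others. The ratio of Pcsk1n to Pcsk1 averaged -2.52 ± 3.04, -3.37 ± 2.03 and -1.66 ± 0.97 in the same order.

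**Figure D3:**
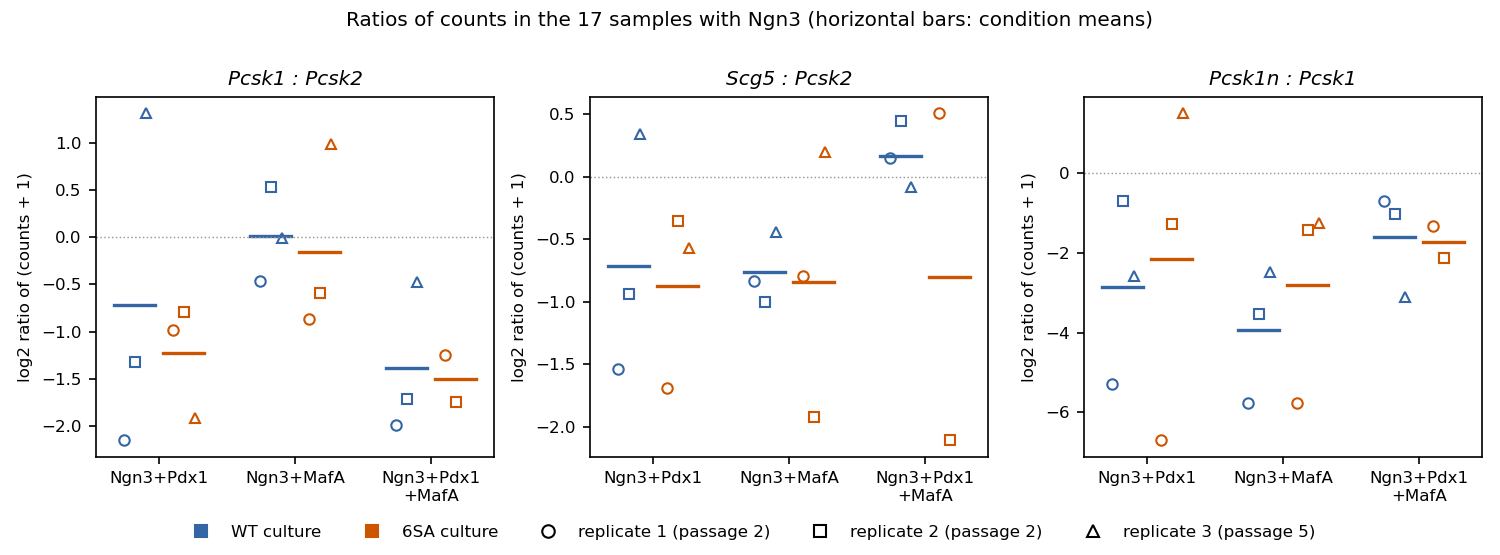
Log2 ratios of counts (with 1 added) of Pcsk1 to Pcsk2, Scg5 to Pcsk2 and Pcsk1n to Pcsk1 in the 17 samples with Ngn3, by factor combination, with blue for WT, orange for 6SA, marker shapes for replicates 1 to 3 and bars for condition means. The 5 samples with all 3 factors lie below 0 for counts of Pcsk1 to Pcsk2, a level that depends on gene length, and replicate 1 of Ngn3-Pdx1 and Ngn3-MafA lies lowest for Pcsk1n to Pcsk1, from -6.70 to -5.30.

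The hormones whose precursors these enzymes cut were present to very different degrees in the same samples. Insulin transcripts reached over 100 counts in cells with all 3 factors, where Ins1 was at 153, 39.6 and 0 CPM (WT) and 62.5 and 8.85 CPM (6SA) and Ins2 at most 14.2 CPM. Gcg, the glucagon precursor, was at 359 CPM in WT Ngn3-MafA replicate 3 and at 443 CPM in 6SA Ngn3-MafA replicate 2, and at most 1.07 CPM in the other samples. Sst, the somatostatin precursor, stood at 13795, 6262 and 19.0 CPM (WT) and 5870, 5787 and 6441 CPM (6SA) in Ngn3-Pdx1 cells. It ran from 4.54 to 3718 CPM in Ngn3-MafA cells and from 1605 to 30703 CPM in cells with all 3 factors.
Pcsk1 and Pcsk2 were thus detected at 43.0 CPM or more and 25.5 CPM or more also in samples where insulin and glucagon transcripts were absent or nearly so. In WT Ngn3-MafA replicate 2, for example, Sst was at 6.13 CPM and Pcsk1 and Pcsk2 at 444 and 309 CPM.

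Replacing WT by 6SA Ngn3 gave no called member among Ngn3 cells by edgeR (0% of all genes called), none with an unadjusted p under 0.05 and none by DESeq2; over all genes the last 2 counts were 1422 and 26. The log2 differences of 6SA from WT were 0.67 for Pcsk1 (95% interval -0.30 to 1.64), 0.72 for Pcsk2 (-0.40 to 1.83), 1.18 for Pcsk1n (-0.07 to 2.43) and 0.32 for Cpe (-0.51 to 1.16). These intervals hold both no difference and differences above 1 on the log2 scale. In cells without Ngn3 from the same cultures, and in the test of whether the effect of Ngn3 differed between 6SA and WT, no member was called by edgeR (0% of all genes in both), had an unadjusted p under 0.05 or was called by DESeq2. The same held for the comparisons of Pdx1, MafA and Pdx1-MafA cells without Ngn3 (0% of all genes called in each).

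Several members varied with the replicate number. Pcsk1n was at 4.57 to 8.31 CPM in replicate 1 of Ngn3-Pdx1 and Ngn3-MafA cells, in WT and 6SA alike, whereas Pcsk1 was at 183 to 590 CPM in the same 4 samples, and replicates 2 and 3 of these conditions had 11.2 to 151 CPM of Pcsk1n. Cells with all 3 factors in replicate 1 had 105 and 110 CPM. Technical repeats, which are separate pools of 50 cells, could differ widely, and in WT replicate 1 with all 3 factors 3 repeats ran from 31.0 to 287 CPM of Pcsk1n (a 9.27-fold range, plain totals).
The widest ranges in the other members among the 8 samples with Ngn3 that had repeats were 3.83-fold for Pcsk1, 2.84-fold for Pcsk2, 2.06-fold for Scg5, 2.12-fold for Cpe, 4.57-fold for Pam, 2.08-fold for Furin and 6.67-fold for Pcsk6, while Pcsk5 had repeats at 0 counts.
Furin without Ngn3 averaged 73.1 ± 6.90 CPM in replicate 1 (SD, n = 6), 28.0 ± 11.1 CPM in replicate 2 (n = 6) and 27.9 ± 5.61 CPM in replicate 3 (n = 3). Pam and Cpe without Ngn3 were highest in replicate 2, at 121 ± 15.3 CPM for Pam against 70.6 ± 8.42 and 71.1 ± 11.2 CPM in replicates 1 and 3, and at 89.7 ± 12.8 CPM for Cpe against 44.3 ± 20.8 and 65.6 ± 18.6 CPM. In the 5 replicate 3 samples with Ngn3, of passage 5, Pcsk1 ran from 43.0 to 149 CPM and Pcsk2 from 25.5 to 207 CPM, against 171 to 590 and 382 to 1162 CPM in replicate 1 and 64.4 to 444 and 162 to 907 CPM in replicate 2. Neurog3 was at 7.87 to 38.8 CPM in the same passage 5 samples. Its part in the lower values was not tested. At passage 2 alone the pooled calls of all 9 members were as with all samples, while in 6SA Ngn3-Pdx1 cells 5 members were called in place of 3. Scg5 was then also called in WT Ngn3-Pdx1 and WT Ngn3-MafA cells (edgeR adjusted p = 0.00532 and 0.00677), and Pcsk6 in 6SA cells with all 3 factors (0.0307) and between 3 factors and Ngn3-Pdx1.

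**Figure D4:**
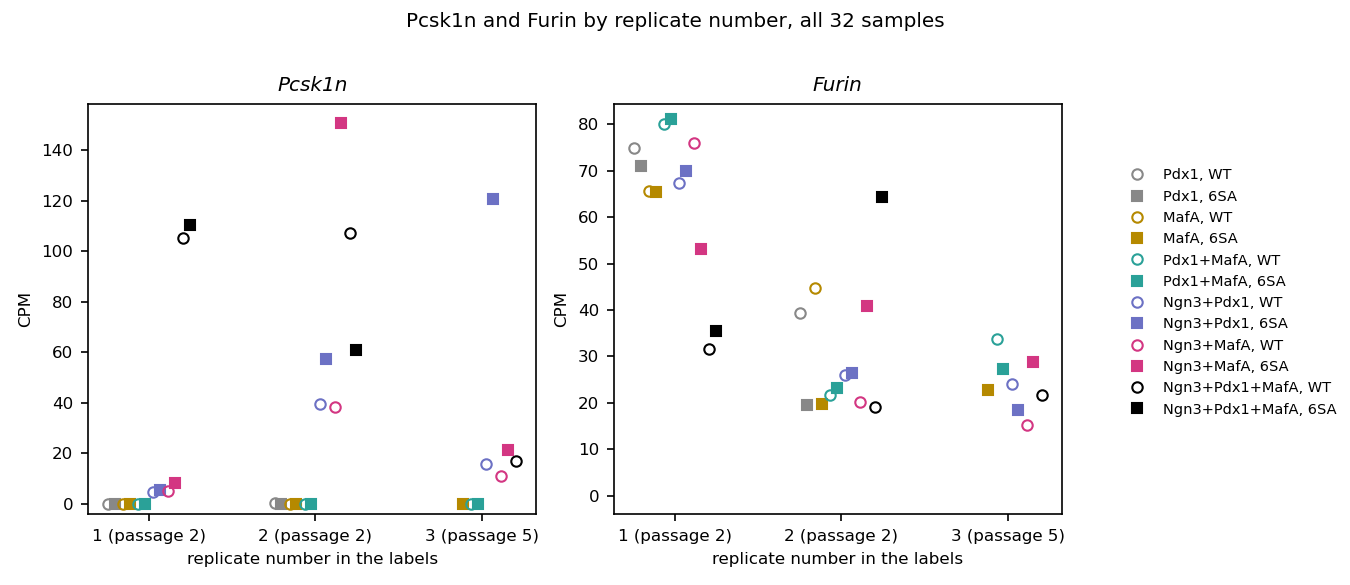
Levels in CPM of Pcsk1n (left) and Furin (right) in all 32 samples, arranged by replicate number, with colours for the factor combination, open circles for WT and filled squares for 6SA cultures. Furin without Ngn3 lies at 65.4 to 81.2 CPM in replicate 1 and at 19.6 to 44.7 CPM in replicates 2 and 3, and Pcsk1n in replicate 1 is above 100 CPM only with all 3 factors.

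Within the 17 samples with Ngn3, Spearman's rho was 0.78 between Pcsk1 and Pcsk2, 0.83 between Pcsk2 and Scg5 and 0.63 between Pcsk1 and Scg5. Pcsk1n stood apart, with -0.13 to Pcsk1, -0.06 to Pcsk2 and 0.06 to Scg5, but 0.65 to Cpe. These are descriptions, since the points share passages and cultures. Over all 32 samples and 10174 genes with a mean of at least 10 CPM, the genes most like Pcsk1 were Pnmal1 (rho 0.932), Syt5 (0.924) and Slc35d3 (0.924). Those most like Pcsk2 were Crmp1 (0.926), Rfx6 (0.920) and Chga (0.920), those most like Pcsk1n were Bambi (0.905), Phyhipl (0.887) and Gfra4 (0.881), and those most like Scg5 were Tubb3 (0.954), Serping1 (0.944) and Efcab1 (0.941).

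Other enzymes that process secreted proteins were called in both directions. Of 22 such genes 21 were tested, and 5 were higher, 4 were lower and 12 did not pass, where 11.1% of all genes were higher and 10.5% lower. The median log2 fold change was -0.07 against 0.07 for all genes and 4.68 for the 9 members. Higher were Cpxm2 (6.31, edgeR adjusted p = 0.000253), Tpst1 (1.41, 0.00651) and Tpst2 (0.98, 0.00104), of which the last 2 are tyrosylprotein sulfotransferases, together with Ece1 (1.14, 0.0131) and the protease Ctsl (0.95, 0.000146). Among the lower were the dipeptidyl peptidase Dpp4 (-2.47, edgeR adjusted p = 0.00327), the carboxypeptidase Cpm (-1.28, 0.0168) and the insulin-degrading enzyme Ide (-0.58, 0.0257). Cpxm2 reached a median of 1.37 CPM with Ngn3, so its fold rests on few counts.

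Substrates were divided by the pathway that cuts them. The shares over all genes were again 11.1% higher and 10.5% lower. Of 26 prohormones and granins 22 were tested, and 13 were higher, 0 were lower and 9 did not pass, with a median log2 fold change of 4.84, or 4.88 with 3 genes at their bound. The 5 with the lowest adjusted p were Chgb (10.15, edgeR adjusted p = 8.05e-12), Scg2 (11.02, 1.83e-11) and Chga (9.79, 4.01e-10), which are granins, and the peptides Ghrl (10.24, 7.66e-11) and Gal (7.64, 1.55e-07). Chgb and Chga are also on the list of endocrine markers, as is Scg2. Of 18 substrates of the constitutive convertases 17 were tested, and 2 were higher, 6 were lower and 9 did not pass, with a median of -0.18. The count higher was close to the 11.1% of all genes. Higher were Gdf11 (1.31, edgeR adjusted p = 0.000315) and Bmp2 (2.06, 0.000609), and among the lower were Adam10 (-0.68, 0.000303), Bmp4 (-1.61, 0.000447) and Met (-0.89, 0.00273), along with Igf2 (-2.07, 0.0129), which was at a low level.

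**Figure D5:**
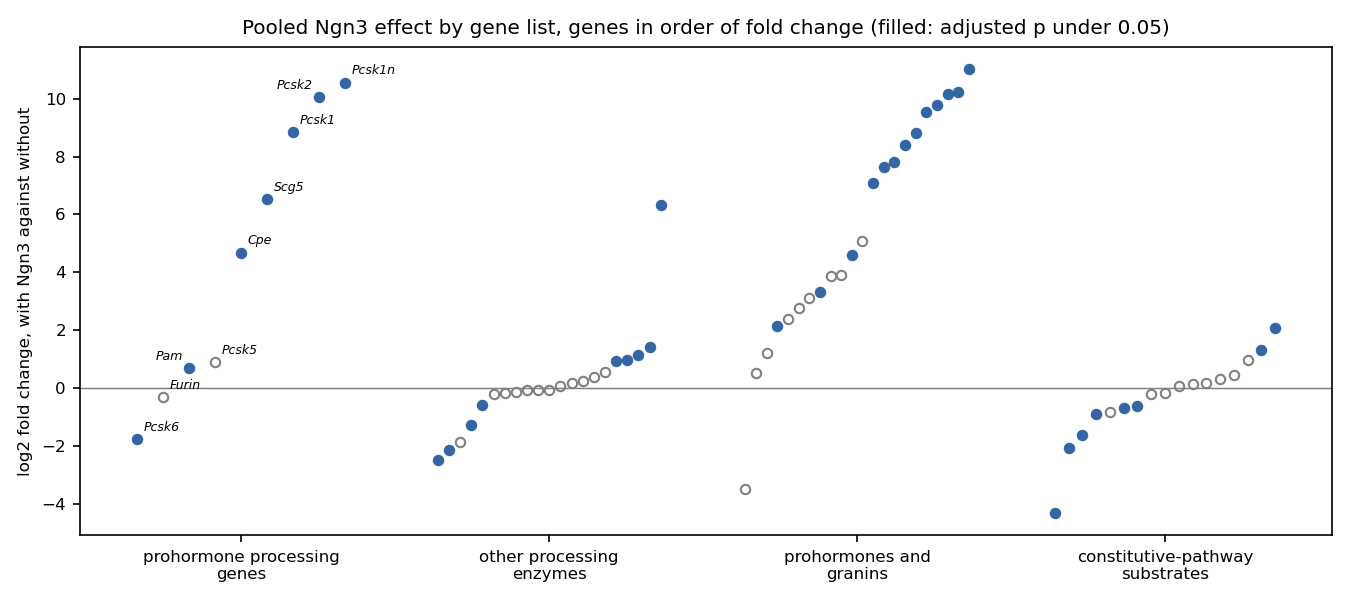
Pooled log2 fold change between cells with and without Ngn3 for the 9 members, other processing enzymes, prohormones and granins, and substrates of the constitutive convertases, in order of size within each list; filled points passed an adjusted p under 0.05. The median is 4.68 for the members, -0.07 for other enzymes, 4.84 for prohormones and -0.18 for constitutive substrates, and folds of prohormones near 0 counts depend on a prior count.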

How the data were processed

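RNA was sequenced from pools of 50 sorted cells in 61 libraries. The deposited table holds raw counts per gene, which the authors made by aligning reads with GSNAP to mm10 and assigning them to Ensembl genes with HTSeq 0.5.3p3, and the strand setting is not given in the sources used here. Reads without a gene (6.42% to 27.8% of each library) and 92 spike-ins stayed out of library sizes. Libraries were kept with over 1000000 gene counts, under 25% spike-in reads and over 10000 genes detected, technical repeats were summed, and 24004 genes were tested, those with counts in 5 or more libraries whose log2(CPM + 1) had a variance over 0.001.

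Groups came from the labels. The main test, fitted over all 32 samples and 12 conditions, was the quasi-likelihood test of edgeR 4.0.16 (R 4.3.3, TMM scaling), with Benjamini-Hochberg adjustment over all genes tested, a threshold of 0.05 and 16 comparisons. The deposited counts were also tested with DESeq2 1.42.0, the tool of the study. Standard errors were taken from the fold change and its F value. Ratios of Pcsk1 to Pcsk2 counts were compared by exact permutation within strata, two-sided, with adjustment over 4 comparisons. The code was tested on simulated data. Alternatives were RLE scaling, plain totals, no gene filter, all libraries, the first technical repeat, other pseudocounts, passage 2 alone, only the conditions compared, a replicate block, newer edgeR dispersion settings and leaving out each sample. Intervals and limits from counts cover counting error only.

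The members and the 3 gene lists were chosen with earlier results of these data known. All members are named; from the lists, at most 5 genes higher and 5 lower with the lowest adjusted p, of which a few are not reported here. Gene positions are GRCm38 (GENCODE annotation), lengths are merged exons and promoters are from RefSeq (GRCm38.p6).

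Whether replicate numbers pair samples was checked by correlating deviations from condition means over 5000 genes. For the 3 factors in WT cells (0.330, 0.127 and 0.154) and Ngn3-MafA in 6SA cells (0.234, 0.350 and 0.441) all 3 pairs exceeded 0.1, so numbers were taken to pair these samples. The other comparisons had 2 pairs each. These were at 0.721 and 0.519 (WT Ngn3-Pdx1), 0.414 and 0.347 (WT Ngn3-MafA), 0.756 and 0.621 (6SA Ngn3-Pdx1) and -0.423 and -0.361 (6SA with 3 factors). In all, 12 of 14 pairs exceeded 0.1. The main test left this pairing out, and the replicate block was run as an alternative.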

Additional observations from a re-analysis of the deposited data

Results flagged for a closer look

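The 5 members that separated cells with and without Ngn3 were also counted in 3 libraries that were left out for low depth (241563, 408733 and 625650 gene counts), all from cells with 3 factors. In these libraries each of the 5 genes exceeded its highest level in any kept library without Ngn3, which was 5.76 CPM for Pcsk1, 4.30 for Pcsk2, 0.309 for Pcsk1n, 10.7 for Scg5 and 103 for Cpe (plain totals). The library of 6SA replicate 2 held 132 CPM of Pcsk1, 774 of Pcsk2, 352 of Pcsk1n, 464 of Scg5 and 4380 of Cpe. That of 6SA replicate 3, the single library of this sample, held 149 CPM of Pcsk1, 506 of Pcsk2, 130 of Pcsk1n, 232 of Scg5 and 1544 of Cpe. The library of WT replicate 2 held 181 CPM of Pcsk1, 1375 of Pcsk2, 609 of Pcsk1n, 321 of Scg5 and 3657 of Cpe. In the 6SA replicate 3 library Pcsk2 thus stood above the 207 CPM of WT replicate 3 (after TMM scaling). These libraries were not tested on their own, and they entered tests only in the alternative with all libraries.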

How the results depend on the processing

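The pooled calls of all 9 members were the same under each of 42 alternatives. Pcsk5, which was not called, changed sign 1 time (-0.0614 without WT Ngn3-Pdx1 replicate 1, up to 2.35 with another sample left out). Counts of members called in single comparisons changed. In Ngn3-Pdx1 against Pdx1 in WT cultures the count went from 2 to 5 without the gene filter, with the replicate block, with only the conditions compared and by DESeq2, and in Ngn3-MafA against MafA in WT cultures from 3 to 6, or to 5 with the block. In Ngn3-Pdx1 against Pdx1 in 6SA cultures it went from 3 to 5 without the gene filter, with the block, with newer edgeR settings (legacy=FALSE), at passage 2, with only the conditions compared and by DESeq2. Leaving out 1 sample gave 0 to 2, 0 to 5 and 0 to 3 members, with 0 wherever a control condition was left with 1 sample, whose spread is then assumed to be that of the other conditions. These 3 comparisons hold 2 pairs of the same replicate number each, with correlations of deviations from 0.347 to 0.756. For 3 factors against Ngn3-Pdx1 the count of 1 became 3 without the gene filter and 2 with newer edgeR settings, at passage 2 and by DESeq2, and 0 to 1 when a sample was left out. Against Ngn3-MafA the count of 0 became 2 without the filter and with the block, 1 with newer edgeR settings and by DESeq2, and 0 to 1 when a sample was left out. Between Ngn3-Pdx1 and Ngn3-MafA it was 0 to 1 (Pcsk6, without WT Ngn3-MafA replicate 1). The block changed no other count by over 1.5 times.

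The ratio of Pcsk1 to Pcsk2 was more sensitive. For 3 factors against Ngn3-MafA it was -1.44 with all libraries (past the threshold) and -1.60 to -1.09 with 1 sample left out. For 3 factors against Ngn3-Pdx1 it ran from -0.83 to 0.037, reversing without WT Ngn3-Pdx1 replicate 3, and for Ngn3-Pdx1 against Ngn3-MafA from -1.41 to -0.55. For 6SA against WT it reversed at passage 2 (0.15) and without the same sample, over a range of -0.50 to 0.076. With the replicate block these 4 differences were -1.15, -0.65, -0.90 and -0.17. Apart from the fewer samples and genes in some alternatives, the cause was not tested.

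With plain totals the share of higher calls moved from 51.0% to 64.4% for all 3 factors in WT cultures, from 74.3% to 86.6% for Ngn3-MafA in 6SA cultures and from 56.8% to 71.7% for all 3 factors in 6SA cultures. Pcsk5 had at most 32 counts in a sample and Pcsk1n 4 counts in all 15 samples without Ngn3, so their folds rest on few counts.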
